A study of Mus musculus with 80 samples.

Results

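Livers of male B6C3F1 mice given dichloroacetic acid (DCA) at 2 g/L in drinking water were compared with livers of mice of the same strain and sex given DCA at 1 g/L. All 12 livers were frozen, and they are the 6 animals numbered 73 to 78 at 2 g/L and the 6 animals numbered 49 to 54 at 1 g/L, out of 24 frozen DCA livers and 80 libraries in the whole series. The series set RNA sequencing of frozen tissue beside that of fixed tissue of the same animals, for DCA and for a plasticizer. Both groups took DCA, so that the comparison is a step in dose and not treatment against none. The labels give an age of 4 weeks and tissue of mixed lobes collected in 1994, and they do not give how long the mice were dosed. Frozen livers of 6 mice at 0 g/L and 6 mice at 3.5 g/L entered the same fit. They were used to estimate the spread and to set the step from 1 to 2 g/L beside the steps before and after it.

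DCA is a small acid formed when water is chlorinated, and it inhibits pyruvate dehydrogenase kinase, the enzyme that switches off the entry of pyruvate into the mitochondrial oxidation of fuel. In rodent liver, fatty acids and many acidic chemicals activate the nuclear receptor PPAR alpha, which binds DNA with its partner RXR at direct repeats of a short motif. Its best known targets are the enzymes that oxidise fatty acids in peroxisomes, in mitochondria and, at the far end of the chain, in the endoplasmic reticulum through cytochromes P450 of the Cyp4a family. Strong activators also make peroxisomes multiply in mouse liver.

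The 2 g/L livers were not sequenced alike. Sequencing run and lane are read here from codes in the deposited column names. Those names do not spell them out, so that both are inferred. Libraries 73, 74 and 75 shared lane L3 and held 3067666 to 3854951 counts, while libraries 76, 77 and 78 shared lane L4 and held 13120822 to 15660761 counts. The 1 g/L libraries held 14606470 to 15284059 counts and came from lanes L5 and L6 of the same sequencing run, except libraries 53 and 54, which came from another run. No lane held libraries of both doses, so that lane and dose cannot be told apart. The other run held libraries of 1 g/L only. A fit with sequencing run as a term therefore in effect compares 2 g/L with libraries 49 to 52, and does not adjust the doses for a batch. Values are CPM, counts scaled to the size of the library, after TMM scaling, which also corrects for its composition. A gene is called when its adjusted p is under 0.05 in edgeR's quasi-likelihood test, with Benjamini-Hochberg adjustment over all genes tested. Fold changes are log2 of 2 g/L over 1 g/L and are given with their standard error, and n was 6 livers per dose. Each library is 1 animal by its label. The p-values weigh the difference between doses against the spread between animals within dose groups, estimated over all 24 frozen DCA libraries. At 2 g/L that spread includes the split between lanes L3 and L4.

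Of 17672 genes in the table, 13089 passed the filter on low counts and were tested. At 2 g/L 1296 genes rose and 869 fell, which is 9.90% and 6.64% of the genes tested, and the median log2 fold change of all genes was 0.01. The split between rises and falls moved with the scaling, since upper-quartile factors gave 1064 rises and 1197 falls. A fold of at least 2 was reached by 199 of the rises and 81 of the falls. In 3.64% of all tested genes every 2 g/L liver lay above every 1 g/L liver, and in 2.83% every 2 g/L liver lay below. Leaving out libraries 73 to 75 gave 682 rises and 456 falls, and with them as the only 2 g/L libraries 973 rose and 981 fell.

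**Figure D1:**
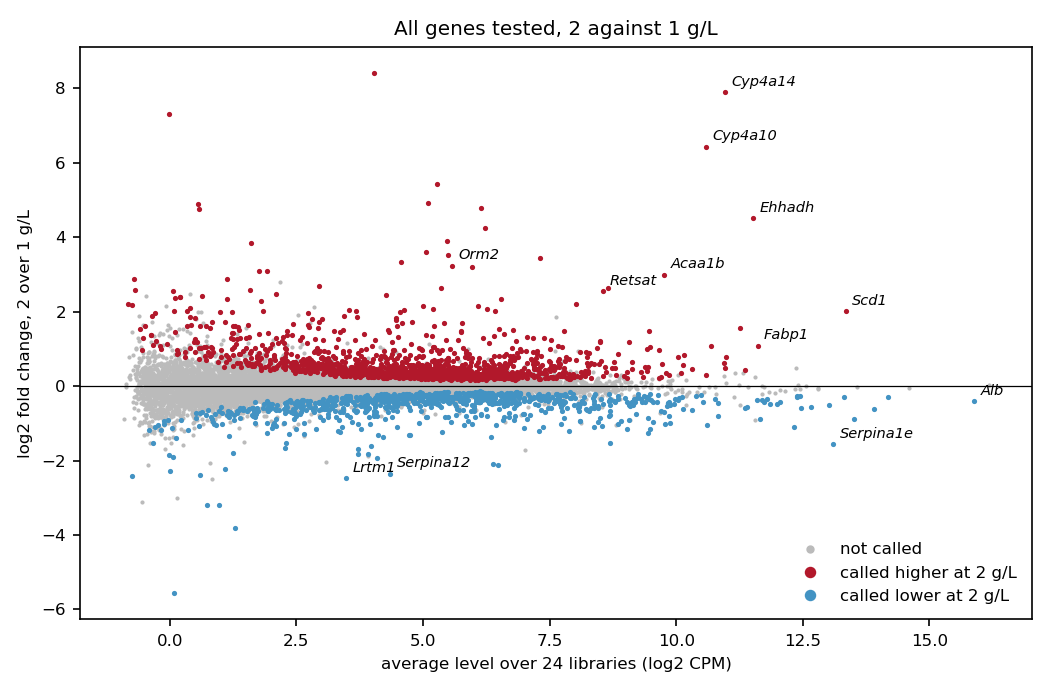
Log2 fold change of 2 over 1 g/L (vertical axis) against the average level in log2 CPM over 24 libraries (horizontal axis), 1 point per tested gene, with 1296 genes called higher in red, 869 called lower in blue and the rest in grey. Cyp4a14, Cyp4a10 and Ehhadh lie high among the abundant genes, and 1 point without a label lies above Cyp4a14, the predicted gene Gm15441 at 8.42.

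Among abundant genes the largest rises included the fatty acid hydroxylases and the thioesterases that release fatty acids from coenzyme A. Cyp4a14, a cytochrome P450 that oxidises fatty acids at the omega end (chr4:115486200-115496142, minus strand, mm10), had 692 to 4342 CPM (median 3168) in 2 g/L livers, against 3.45 to 29.4 CPM (median 11.2) in 1 g/L livers. No liver of one dose came near a liver of the other, and the log2 fold change was 7.89 ± 0.66, adjusted p = 3.27e-08. Cyp4a10, its neighbour with the same activity (chr4:115518264-115533649, plus strand), had 601 to 3654 CPM (median 2466) in 2 g/L livers, against 5.98 to 59.7 CPM (median 23.3) in 1 g/L livers (6.44 ± 0.63, adjusted p = 2.06e-07). Cyp4a31, a further gene of the cluster, had 30.7 to 184 CPM (median 85.1) in 2 g/L livers, against 1.39 to 6.72 CPM (median 3.27) in 1 g/L livers (4.8 ± 0.42, adjusted p = 4.41e-08). Both of these Cyp4a genes kept the doses apart in all 12 livers. Acot2, a mitochondrial acyl-CoA thioesterase (chr12:83987861-83993873, plus strand), had 6.82 to 84.4 CPM (median 48.2) in 2 g/L livers, against 1.12 to 2.32 CPM (median 1.24) in 1 g/L livers (4.91 ± 0.50, adjusted p = 3.51e-07). Its cytosolic relative Acot1 (chr12:84009490-84018371, plus strand) had 15.1 to 171 CPM (median 95.7) in 2 g/L livers, against 4.05 to 6.38 CPM (median 4.55) in 1 g/L livers (4.25 ± 0.41, adjusted p = 1.67e-07). Each of these genes had all 6 livers at 2 g/L above all 6 at 1 g/L, which their choice as the largest rises required. The Cyp4a genes and the Acot genes are near-identical copies in clusters, and how reads were shared within each family is uncertain.

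Of 16 genes listed for omega-hydroxylation, 13 were tested, 8 rose and 2 fell (median log2 fold change 0.66, against 0.01 for all genes). The shares over all tested genes were 9.90% for rises and 6.64% for falls. Among the rises was Aldh3a2, which oxidises the fatty aldehydes that follow. Cyp4f14 and Cyp4v3, which belong to other branches of the Cyp4 family, fell. Cyp4f15 and Cyp4f17 rose, while Cyp4a12a, Cyp4b1 and Cyp4f13 did not pass. The same list without libraries 73 to 75 had 5 rises and 1 fall.

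Peroxisomal beta-oxidation shortens long fatty acids by removing 2-carbon units. In this list 16 of 26 tested genes rose and 3 fell, beside 9.90% and 6.64% of all tested genes. Its median log2 fold change was 0.81. Ehhadh, the bifunctional enzyme of the middle steps of the pathway (chr16:21761287-21787807, minus strand), had 809 to 7524 CPM (median 5329) in 2 g/L livers, against 174 to 239 CPM (median 222) in 1 g/L livers (4.51 ± 0.35, adjusted p = 1.01e-08). Acaa1b, the thiolase of the last step (chr9:119148023-119157093, minus strand), had 593 to 2333 CPM (median 1793) in 2 g/L livers, against 178 to 234 CPM (median 214) in 1 g/L livers (3.0 ± 0.26, adjusted p = 3.71e-08). The doses did not overlap in either gene, which the choice of Ehhadh required. Among the other rises were Hsd17b4, Acaa1a, Abcd3, Acot3, Acot4, Acot6, Acot8, Acot12, Crat, Crot, Decr2 and Eci2. Scp2, Phyh and Pecr fell, of which Phyh starts the breakdown of branched fatty acids and Scp2 encodes a thiolase and a sterol carrier from one gene. Acot5 and Eci3 did not pass the filter. Leaving out libraries 73 to 75 gave 14 rises and 1 fall, and leaving out library 77 alone gave 5 falls.

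Of 19 tested genes that build and divide peroxisomes 6 rose (median 0.21), where 9.90% of all tested genes did. The rises included Pex5, Pex11a, Pex14, Pex16 and Pex19, and the other 13 genes did not pass the test. Pex11a, which elongates peroxisomes before they divide, had 9.55 to 24.9 CPM (median 18.4) in 2 g/L livers, against 7.11 to 8.83 CPM (median 7.78) in 1 g/L livers (1.09 ± 0.20, adjusted p = 0.000333). Pex16, which helps insert peroxisomal membrane proteins, had 38.6 to 47.2 CPM (median 42.5) in 2 g/L livers, against 24.8 to 35.7 CPM (median 28.1) in 1 g/L livers (0.58 ± 0.09, adjusted p = 0.000111). Both genes separated the doses.

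**Figure D2:**
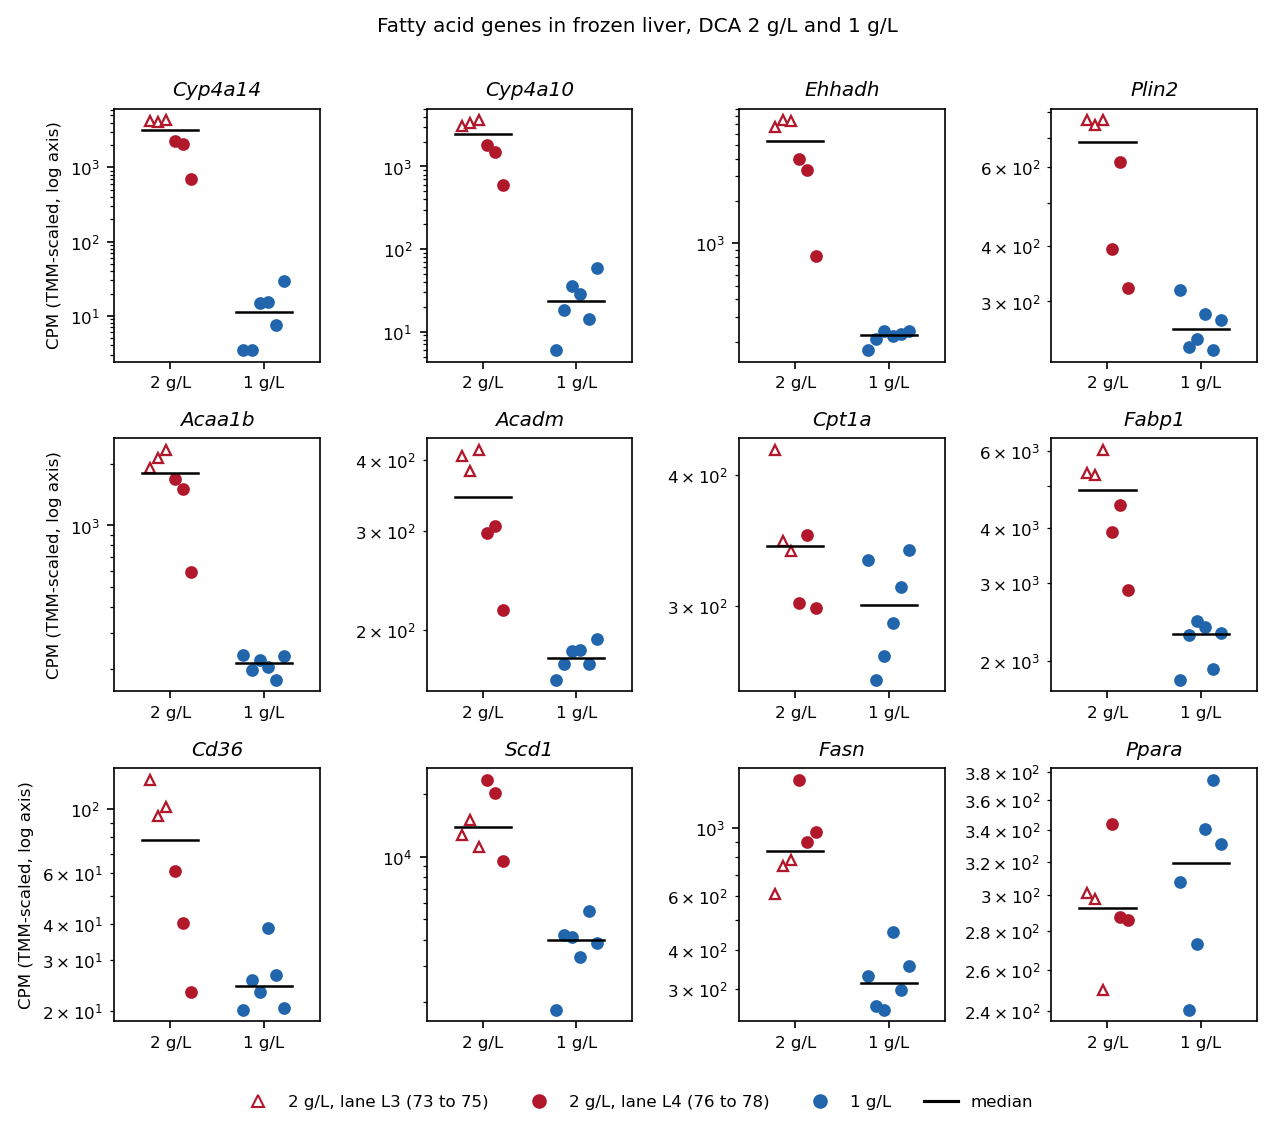
TMM-scaled CPM on log axes for 12 genes of fatty acid metabolism, with 1 point per liver and the group median as a bar, 2 g/L left of 1 g/L. Open triangles are libraries 73 to 75 of lane L3, filled red circles are libraries 76 to 78 of lane L4. The doses separate in 9 of the 12 genes and overlap in Cpt1a, Cd36 and Ppara. For Cyp4a14, Cyp4a10 and Ehhadh the separation was a condition of their choice as largest rises.

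In mitochondrial beta-oxidation, which yields acetyl-CoA for energy and ketone bodies, 16 of 23 genes rose and Acsm1, a medium-chain acyl-CoA synthetase, fell (median 0.48). Over all tested genes 9.90% rose and 6.64% fell. Acadm, the medium-chain acyl-CoA dehydrogenase (chr3:153922357-153944632, minus strand), had 217 to 417 CPM (median 344) in 2 g/L livers, against 163 to 193 CPM (median 179) in 1 g/L livers (0.92 ± 0.11, adjusted p = 3.62e-06). Eci1, which shifts double bonds so that unsaturated fatty acids can be oxidised, had 73.4 to 173 CPM (median 125) in 2 g/L livers, against 45.3 to 52.7 CPM (median 49.2) in 1 g/L livers (1.36 ± 0.14, adjusted p = 2.74e-07). The very long-chain and short-chain dehydrogenases Acadvl and Acads, the trifunctional subunits Hadha and Hadhb and the electron transfer genes Etfb and Etfdh were among the rises.

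In the carnitine shuttle, which carries fatty acids into mitochondria, 3 of 6 tested genes rose (Cpt2, Slc25a20 and Slc22a5), also without libraries 73 to 75. Rises made up 9.90% of all tested genes. Slc22a5, the carnitine importer of the cell membrane, had 11.2 to 46.9 CPM (median 34.9) in 2 g/L livers, against 7.39 to 11.1 CPM (median 8.496) in 1 g/L livers (1.74 ± 0.26, adjusted p = 3.56e-05). Cpt2, the transferase of the inner mitochondrial membrane, had 129 to 238 CPM (median 198) in 2 g/L livers, against 102 to 109 CPM (median 105) in 1 g/L livers (0.86 ± 0.11, adjusted p = 1.12e-05). Cpt1a, the outer transferase that controls the rate of entry, had 298 to 423 CPM (median 342) in 2 g/L livers, against 255 to 339 CPM (median 301) in 1 g/L livers. Its groups overlapped and it did not pass the test (0.20 ± 0.10, adjusted p = 0.189), with a 95% interval of 0.00 to 0.39. Of 7 genes for ketone bodies, the fuel that liver makes from fatty acids, 4 rose, among them Acat1, a thiolase, and Slc16a1, a carrier that exports ketone bodies. Without libraries 73 to 75, 14 of the 23 mitochondrial genes and 2 of the 7 ketone body genes rose.

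Genes that bring fatty acids into the cell and bind them rose as well, 10 of 17 (median 0.51). Slc27a5 and Lipc, a bile acid and fatty acid ligase and the hepatic lipase, fell. Rises were 9.90% and falls 6.64% of all tested genes. Fabp1, the liver fatty acid binding protein (chr6:71199827-71205023, plus strand), had 2889.8 to 6043 CPM (median 4899) in 2 g/L livers, against 1807 to 2455 CPM (median 2299) in 1 g/L livers (1.09 ± 0.19, adjusted p = 0.000267). Dbi, which binds acyl-CoA, had 448 to 685 CPM (median 644) in 2 g/L livers, against 279 to 386 CPM (median 345) in 1 g/L livers (0.86 ± 0.10, adjusted p = 2.46e-06). Cd36, a fatty acid transporter of the cell membrane, had 23.2 to 127 CPM (median 78.1) in 2 g/L livers, against 20.3 to 38.7 CPM (median 24.5) in 1 g/L livers (1.48 ± 0.32, adjusted p = 0.00216). In Cd36 library 78 lay within the 1 g/L range, and the call was lost without libraries 73 to 75 (log2 fold change 0.67, adjusted p = 0.178).

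Fatty acid genes are shown here beside sequence, because the repeat that PPAR alpha and RXR bind can be searched in a promoter. Of the 85 genes called higher in the 9 lists on fatty acid oxidation, ketone bodies, peroxisomes, uptake, lipid droplets and PPAR alpha targets, 64 had an entry in the RefSeq promoter table (GRCm38.p6, 250 bases before to 50 bases after the start). The direct repeat of AGGNCA with any 1 base (N) between the copies, read on both strands, stood in 1 of these 64, which was Fabp1, and in 0.381% of all 32851 promoters. The repeat begins 67 bases before the start of Fabp1 and is read on the opposite strand. The single site AGGTCA, also on both strands and able to lie within the longer repeat, stood in 11 of the 64 (17.2%) and in 16.3% of all promoters. A gene counted when any of its promoter entries matched, while the shares of all promoters are per entry, so that the units differ. The promoter of Ehhadh is set beside that of Fabp1 as one with the larger rise and without the repeat in this window. Capitals mark the repeat, and both sequences run 5′ to 3′ on the strand of the gene (Fabp1 chr6:71199629-71199928, plus strand, and Ehhadh chr16:21787785-21788084, minus strand). A match is a description of letters only, and a window without one says nothing about binding elsewhere.
Fabp1: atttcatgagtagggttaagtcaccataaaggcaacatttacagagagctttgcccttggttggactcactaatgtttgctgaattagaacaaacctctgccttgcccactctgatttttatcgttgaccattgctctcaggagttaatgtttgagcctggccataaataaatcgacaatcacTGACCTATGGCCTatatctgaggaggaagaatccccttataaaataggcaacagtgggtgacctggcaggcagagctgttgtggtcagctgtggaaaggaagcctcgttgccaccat
Ehhadh: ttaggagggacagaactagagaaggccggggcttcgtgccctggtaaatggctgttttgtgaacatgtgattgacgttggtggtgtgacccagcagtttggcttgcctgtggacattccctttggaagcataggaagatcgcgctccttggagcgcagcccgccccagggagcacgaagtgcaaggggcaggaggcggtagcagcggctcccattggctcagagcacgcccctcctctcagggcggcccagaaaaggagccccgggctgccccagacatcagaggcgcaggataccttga

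Lipid storage genes shared the direction. Of 17 tested genes for lipid droplets and lipolysis 10 rose and the other 7 did not pass (median 0.41). Over all tested genes the share of rises was 9.90%. Plin2, the main coat protein of lipid droplets (chr4:86648386-86670060, minus strand), had 321 to 766 CPM (median 682) in 2 g/L livers, against 233 to 318 CPM (median 260.1) in 1 g/L livers (1.18 ± 0.17, adjusted p = 2.46e-05). Hsd17b11, a dehydrogenase of the droplet surface, had 89.5 to 214 CPM (median 181) in 2 g/L livers, against 63.2 to 70.3 CPM (median 67.4) in 1 g/L livers (1.33 ± 0.15, adjusted p = 1.44e-06). Mgll, the lipase that frees the last fatty acid of a glyceride, had 154 to 289.5 CPM (median 229) in 2 g/L livers, against 82.4 to 108 CPM (median 94.3) in 1 g/L livers (1.29 ± 0.14, adjusted p = 1.07e-06). These 3 genes separated the doses in all 12 livers. When libraries 73 to 75 were left out, 7 of these 17 genes, 7 of the 17 uptake genes and 9 of the 22 other PPAR alpha targets rose.

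Of 22 other known targets of PPAR alpha 12 rose and the other 10 did not pass (median 0.54). Among all tested genes 9.90% rose. Vnn1, a pantetheinase (chr10:23894688-23905343, plus strand), had 22.6 to 135 CPM (median 85.9) in 2 g/L livers, against 5.37 to 9.096 CPM (median 6.13) in 1 g/L livers (3.52 ± 0.36, adjusted p = 4.36e-07). Retsat, a retinol saturase, had 213 to 782 CPM (median 623) in 2 g/L livers, against 85.3 to 119 CPM (median 94.3) in 1 g/L livers (2.54 ± 0.22, adjusted p = 3.71e-08). Ucp2, a mitochondrial carrier, had 20.02 to 53.3 CPM (median 38.8) in 2 g/L livers, against 8.37 to 14.8 CPM (median 11.6) in 1 g/L livers (1.63 ± 0.20, adjusted p = 3.00e-06). Angptl4, a secreted inhibitor of lipoprotein lipase, had 38.4 to 127 CPM (median 101) in 2 g/L livers, against 36.9 to 64.1 CPM (median 47.3) in 1 g/L livers (0.85 ± 0.22, adjusted p = 0.00834), and the groups overlapped. Its call was lost without libraries 73 to 75 (log2 fold change 0.39, adjusted p = 0.310). Fgf21, a hormone of fasting liver, was near the limit of detection with 0 to 1.56 CPM (median 0.445) in 2 g/L livers, against 0 to 0.797 CPM (median 0.261) in 1 g/L livers, and it did not pass (0.92 ± 0.60, adjusted p = 0.322). Ppara, the receptor gene itself, had 249.9 to 344 CPM (median 293) in 2 g/L livers, against 241 to 375 CPM (median 319) in 1 g/L livers, and it did not pass the test (-0.08 ± 0.13, adjusted p = 0.742; 95% interval -0.34 to 0.18).

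On a scale per length, Fabp1 was at a median of 15417 FPKM in 2 g/L livers and 6836 FPKM in 1 g/L livers. Ehhadh was at 1941 FPKM in 2 g/L livers and 78.6 FPKM in 1 g/L livers, and Cyp4a14 at 1415 FPKM in 2 g/L livers and 4.74 FPKM in 1 g/L livers. Cyp4a10 was at 1449 FPKM in 2 g/L livers and 12.6 FPKM in 1 g/L livers, and Acaa1b at 1234 FPKM in 2 g/L livers and 139 FPKM in 1 g/L livers. These are medians of the authors' deposited FPKM values (fragments scaled by gene length and library size), by which Ehhadh stood above Acaa1b at 2 g/L and below it at 1 g/L. They carry no TMM scaling.

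Some fatty acid genes differed between the lanes of the 2 g/L group. Ehhadh had 6669.5, 7524 and 7385 CPM in libraries 73, 74 and 75, and 3988, 3336 and 809 CPM in libraries 76, 77 and 78. Cyp4a14 had 4202, 4104 and 4342 CPM in the first 3 libraries and 2233, 2056 and 692 CPM in the others. In both genes library 78 was the lowest of the 2 g/L group and still above every 1 g/L liver. With each lane as a group of its own, 0.604% of tested genes were called higher and 0.649% lower in lane L3 than in lane L4 (79 and 85 genes). Acot2, Slc22a5, Acadm, Ucp2, Eci1, Retsat, Vnn1, Plin2 and Ehhadh were among those higher in lane L3, with differences of 2.02 for Acot2 (adjusted p = 0.00888) and 1.41 for Ehhadh (adjusted p = 0.0368). The set held 4 of 26 peroxisomal, 3 of 23 mitochondrial, 1 of 13 omega-hydroxylation and 1 of 17 uptake genes. It also held 2 of 6 carnitine shuttle genes, 4 of 22 other PPAR alpha targets, 2 of 17 lipid droplet genes and 1 of 7 ketone body genes. In these lists 1 peroxisomal and 1 lipid droplet gene were lower in lane L3. The difference for Cyp4a14 did not pass the test (adjusted p = 0.342). Lane, depth and animals are the same split here and cannot be told apart.

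Several rises were called with the libraries of either lane alone at 2 g/L, while those named elsewhere as lost without libraries 73 to 75 were not. With libraries 76 to 78 alone at 2 g/L the log2 fold change was 7.06 for Cyp4a14 (adjusted p = 1.85e-06), 3.63 for Ehhadh (4.39e-07), 2.56 for Acaa1b (5.93e-06) and 0.60 for Acadm (0.000772). With libraries 73 to 75 as the only ones at 2 g/L, it was 8.4, 5.03, 3.3 and 1.15 for the same genes in that order. Of 84 named genes called over all libraries, 71 were also called without libraries 73 to 75 and 78 with only those 3 at 2 g/L. None of the 84 changed sign in either fit.

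Genes that make fat rose together with those that burn it. Of 22 genes for fatty acid and triglyceride synthesis 12 rose and 3 fell (median 0.52), against 11 and 1 without libraries 73 to 75. With all libraries 9.90% of tested genes rose and 6.64% fell. Scd1, the desaturase that makes monounsaturated fatty acids (chr19:44394455-44407879, minus strand), had 9602 to 23587 CPM (median 13893) in 2 g/L livers, against 1841 to 5478 CPM (median 4006) in 1 g/L livers (2.02 ± 0.28, adjusted p = 1.90e-05). Fasn, fatty acid synthase (chr11:120805846-120824547, minus strand), had 607 to 1432 CPM (median 838) in 2 g/L livers, against 256 to 459 CPM (median 313) in 1 g/L livers (1.47 ± 0.20, adjusted p = 1.54e-05). Me1, the malic enzyme that supplies reducing power, had 152 to 468 CPM (median 282) in 2 g/L livers, against 72.4 to 134 CPM (median 106) in 1 g/L livers (1.48 ± 0.19, adjusted p = 6.74e-06), and Lpin2, a phosphatidate phosphatase, had 203 to 433 CPM (median 314) in 2 g/L livers, against 123 to 177 CPM (median 139) in 1 g/L livers (1.21 ± 0.14, adjusted p = 1.18e-06). All 4 separated the doses, and in Fasn the 3 libraries of lane L4 were all above those of lane L3. Elovl2, Elovl3 and Dgat2 fell. Acaca, Acacb, Elovl5, Elovl6, Srebf1, Gpam, Agpat2 and Mttp were the remaining rises.

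Pklr, the liver pyruvate kinase, had 29.01 to 137 CPM (median 65.2) in 2 g/L livers, against 58.6 to 82.7 CPM (median 73.2) in 1 g/L livers, and over all libraries it did not pass the test (0.07 ± 0.27, adjusted p = 0.903). Its 2 g/L values split around the 1 g/L range, with 45.1, 32.5 and 29.01 CPM in libraries 73, 74 and 75 and 137, 108 and 85.3 CPM in libraries 76, 77 and 78. The log2 fold change was -1.03 with only the first 3 libraries at 2 g/L (adjusted p = 0.00306) and 0.60 without them (adjusted p = 0.0608). Of 22 tested genes for cholesterol synthesis and uptake 5 rose, among them Mvd and Hsd17b7, which act in sterol synthesis, and the other 17 did not pass (median 0.18). The count without libraries 73 to 75 was 3. Among all tested genes 9.90% rose over all libraries.

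DCA acts on the kinases of the pyruvate dehydrogenase complex. Of 14 genes for this complex, its regulators and pyruvate import 5 rose (Pdhb, Dlat, Pdhx, Pdk1 and Pdp2) and the other 9 did not pass (median 0.22). The share of rises among all tested genes was 9.90%. Leaving out library 76 left 3 rises, and with only libraries 73 to 75 at 2 g/L there were 3. Pdp2, a phosphatase that switches the complex on, had 43.4 to 64.9 CPM (median 56.7) in 2 g/L livers, against 29.04 to 38.3 CPM (median 31.2) in 1 g/L livers (0.75 ± 0.11, adjusted p = 2.92e-05). Pdhb, a subunit of the complex, had 73.6 to 97.2 CPM (median 80) in 2 g/L livers, against 55.6 to 68.7 CPM (median 62.4) in 1 g/L livers (0.40 ± 0.08, adjusted p = 0.000936). Pdk4, the kinase isoform that PPAR alpha induces, had 7.96 to 42.5 CPM (median 14.8) in 2 g/L livers, against 4.21 to 18.5 CPM (median 6.99) in 1 g/L livers. The groups overlapped and Pdk4 did not pass the test (0.98 ± 0.56, adjusted p = 0.248), with a log2 fold change of 1.86 with only libraries 73 to 75 at 2 g/L (adjusted p = 0.0504) and of -0.05 without them (adjusted p = 0.972). Its highest median stood at 3.5 g/L, with 95.9 CPM.

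In the tricarboxylic acid cycle, the shared pathway of fuel oxidation, 8 of 19 genes rose and Sdha, a subunit of succinate dehydrogenase, fell (median 0.14). Leaving out library 53, 76 or 77 left 4 rises and leaving out library 54 left 5, and there were 4 with sequencing run as a term. Dlst, a subunit of the oxoglutarate dehydrogenase complex, had 190.1 to 261 CPM (median 255) in 2 g/L livers, against 156 to 181 CPM (median 174) in 1 g/L livers (0.52 ± 0.08, adjusted p = 0.000104). Gstz1, the enzyme that clears DCA and also works in tyrosine breakdown (chr12:87147165-87164723, plus strand), had 408 to 486 CPM (median 422) in 2 g/L livers, against 453 to 515 CPM (median 466) in 1 g/L livers. It did not pass the test (-0.14 ± 0.06, adjusted p = 0.0853; 95% interval -0.26 to -0.03), but it was called lower with upper-quartile factors, in DESeq2 and without library 49 or 76. Among 24 genes of glucose and glycogen metabolism 4 rose and 2 fell, where 9.90% of all tested genes rose and 6.64% fell. With only libraries 73 to 75 at 2 g/L, 2 of these genes rose and 6 fell. Gbe1, the glycogen branching enzyme, had 93.5 to 161 CPM (median 129) in 2 g/L livers, against 58.4 to 89.6 CPM (median 73.2) in 1 g/L livers (0.82 ± 0.13, adjusted p = 7.42e-05), and Ppp1r3b, a subunit that targets a phosphatase to glycogen, had 98.2 to 202 CPM (median 146) in 2 g/L livers, against 254 to 346 CPM (median 280.0) in 1 g/L livers (-0.94 ± 0.17, adjusted p = 0.000325).

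Male mouse liver expresses a set of genes above female liver, a pattern that pulses of growth hormone maintain. Of 15 tested male-biased genes 11 fell and Cyp4a12b rose, with a median log2 fold change of -1.01. Among all tested genes 6.64% fell and 9.90% rose. All 11 falls had every 2 g/L liver below every 1 g/L liver, which held for 2.83% of all tested genes. Mup21, a major urinary protein (chr4:62147932-62150863, minus strand), had 9.68 to 65.2 CPM (median 30.6) in 2 g/L livers, against 67.5 to 200.4 CPM (median 148) in 1 g/L livers (-2.09 ± 0.39, adjusted p = 0.000486). Ugt2b38, a glucuronosyltransferase (chr5:87409942-87424203, minus strand), had 4.07 to 11.8 CPM (median 5.602) in 2 g/L livers, against 21.3 to 31.5 CPM (median 26.96) in 1 g/L livers (-1.93 ± 0.27, adjusted p = 2.39e-05). Ugt2b1, of the same family (chr5:86916638-86926530, minus strand), had 276 to 524 CPM (median 397) in 2 g/L livers, against 871 to 1201 CPM (median 891) in 1 g/L livers (-1.25 ± 0.14, adjusted p = 6.99e-07). The choice of Mup21 and Ugt2b38 required that the doses not overlap, and in Ugt2b1 they did not overlap either. Serpina1e, a form of alpha-1-antitrypsin (chr12:103946931-103958975, minus strand), had 3136 to 5154 CPM (median 3970.3) in 2 g/L livers, against 6061 to 13614 CPM (median 13064) in 1 g/L livers (-1.55 ± 0.30, adjusted p = 0.000670). Elovl3, a fatty acid elongase (chr19:46131897-46135694, plus strand), had 77.5 to 268 CPM (median 237) in 2 g/L livers, against 501 to 745 CPM (median 611) in 1 g/L livers (-1.54 ± 0.26, adjusted p = 0.000171). C8b, a complement component, had 193 to 302 CPM (median 233) in 2 g/L livers, against 472 to 608 CPM (median 493) in 1 g/L livers (-1.07 ± 0.12, adjusted p = 1.46e-06). The choice of Serpina1e and Elovl3 also required that the doses not overlap. None of these 6 male-biased genes was called between lanes L3 and L4 at 2 g/L, with adjusted p from 0.118 for Ugt2b1 to 0.816 for Serpina1e. The Mup, Ugt2b and Serpina1 genes are clusters of close copies, and the sharing of reads within them is uncertain.

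Without libraries 73 to 75, 9 of the male-biased genes fell, and with only those libraries at 2 g/L 11 did. Of 14 female-biased genes, 8 passed the filter, 3 rose (Cyp2b9, Cyp2a4 and Cyp17a1) and Cyp3a44 fell. Cyp2b9, a P450 of female liver that CAR also induces (chr7:26173411-26210661, plus strand), had 5.13 to 35.96 CPM (median 18.2) in 2 g/L livers, against 0.4498 to 4.01 CPM (median 0.925) in 1 g/L livers (3.91 ± 0.65, adjusted p = 0.000127). Cyp2a4, a steroid 15-alpha-hydroxylase, had 4.09 to 36.1 CPM (median 12.2) in 2 g/L livers, against 0.266 to 3.39 CPM (median 0.931) in 1 g/L livers (3.61 ± 0.55, adjusted p = 5.95e-05). Both have close copies. Of 11 tested genes of growth hormone signalling 3 fell (Ghr, Igf1 and Igfbp3), and 1 fell without library 51, 53 or 74 and without libraries 73 to 75. Among all tested genes 9.90% rose and 6.64% fell. Ghr, the receptor, had 401 to 499 CPM (median 437) in 2 g/L livers, against 573 to 739 CPM (median 604) in 1 g/L livers (-0.52 ± 0.09, adjusted p = 0.000157). Igfbp3, a carrier of the growth factor IGF1, had 16.1 to 31.2 CPM (median 25.8) in 2 g/L livers, against 26.6 to 40.5 CPM (median 34.7) in 1 g/L livers. Its groups overlapped (-0.46 ± 0.14, adjusted p = 0.0268), and its call was lost without libraries 73 to 75 (adjusted p = 0.123) and without any 1 of libraries 51, 53, 74 and 77 (adjusted p up to 0.0659).

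**Figure D3:**
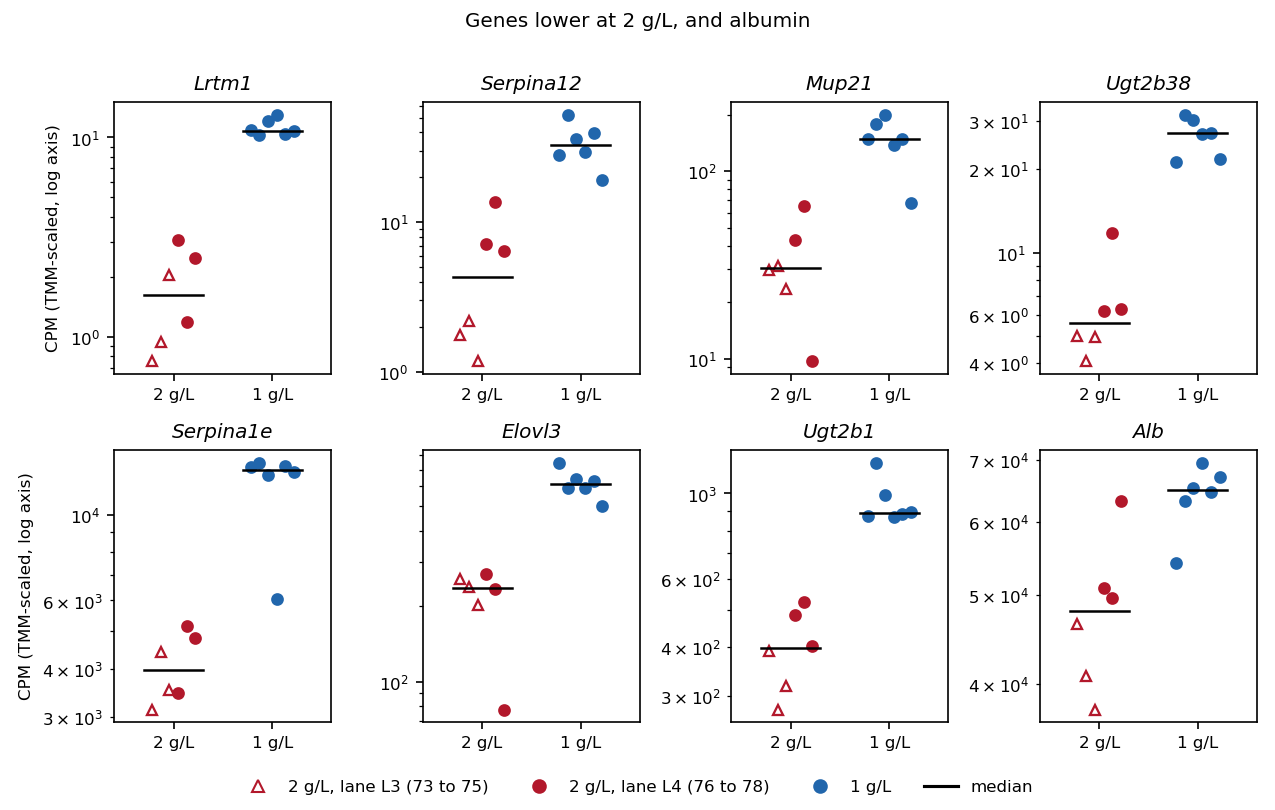
TMM-scaled CPM on log axes for 7 genes called lower with no overlap between doses, and for albumin, with 1 point per liver and the group median as a bar, 2 g/L left of 1 g/L. Open triangles are libraries 73 to 75. In Alb, library 78 at 2 g/L lies among the 1 g/L livers. The doses separate in the 7 other genes, which was a condition of choice for all but Ugt2b1.

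Further falls were in genes of varied function. Lrtm1 and Serpina12 had the largest falls of named genes, chosen among those called without overlap at a mean of at least 2 log2 CPM, and rows of lower level such as Gm4477 (-5.56 ± 0.96, adjusted p = 0.000210) fell further. Lrtm1, which encodes a leucine-rich repeat membrane protein (chr14:29018208-29033645, plus strand), had 0.752 to 3.06 CPM (median 1.62) in 2 g/L livers, against 10.3 to 13.03 CPM (median 10.8) in 1 g/L livers (-2.47 ± 0.26, adjusted p = 6.09e-07). Serpina12, the gene of the adipokine vaspin (chr12:104028769-104044443, minus strand), had 1.17 to 13.8 CPM (median 4.29) in 2 g/L livers, against 19.2 to 52.7 CPM (median 32.9) in 1 g/L livers (-2.35 ± 0.35, adjusted p = 3.80e-05). Slc22a28, of the organic anion transporter family, had 2.93 to 10.2 CPM (median 7.38) in 2 g/L livers, against 18.99 to 28.4 CPM (median 25.9) in 1 g/L livers (-1.62 ± 0.26, adjusted p = 7.88e-05). Gpr110, an adhesion G protein-coupled receptor, had 1.56 to 8.94 CPM (median 3.69) in 2 g/L livers, against 14.6 to 33.5 CPM (median 19.7) in 1 g/L livers (-1.83 ± 0.31, adjusted p = 0.000174). The choice of these 4 genes required that the doses not overlap.

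Most of the listed hepatocyte markers, many of them genes of secreted proteins, were lower too. Of 13 hepatocyte markers 9 fell (median -0.41), where 6.64% of all tested genes did. The other 4, Apoa1, Apoa2, Fgb and Hnf4a, did not pass. The summed level of the 13 markers was 94353 to 137138 CPM in 2 g/L livers, against 135349 to 152195 CPM in 1 g/L livers. Alb, serum albumin (chr5:90460897-90476602, plus strand), had 37559 to 63163 CPM (median 48099) in 2 g/L livers, against 54170.1 to 69586 CPM (median 65006) in 1 g/L livers (-0.41 ± 0.11, adjusted p = 0.00956). One 2 g/L liver lay within the 1 g/L range, and the call was lost without libraries 73 to 75 (log2 fold change -0.24, adjusted p = 0.189). Serpina1c, a further alpha-1-antitrypsin, had 4168 to 5326 CPM (median 4741) in 2 g/L livers, against 6300.1 to 7931 CPM (median 7049.7) in 1 g/L livers (-0.58 ± 0.09, adjusted p = 5.52e-05). Cps1, which starts the urea cycle, had 3794 to 6001 CPM (median 4816) in 2 g/L livers, against 6319 to 7583 CPM (median 7214) in 1 g/L livers (-0.55 ± 0.09, adjusted p = 0.000210). In whole liver RNA, fewer cells of a type and less RNA per cell cannot be told apart. All levels are shares of a library. Without libraries 73 to 75, 5 of the 13 markers fell.

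Among markers of the liver lobule 5 of 12 fell for the zone around the central vein and 5 of 12 for the zone around the portal vein (3 without library 75), with 1 rise in each (Slc22a3 and Aldh1b1). Over all tested genes 6.64% fell and 9.90% rose. Without libraries 73 to 75 the falls were 5 pericentral and 2 periportal, and with only those libraries at 2 g/L they were 5 and 7. Cyp1a2, a pericentral P450 that the AhR also induces, had 224 to 311 CPM (median 287) in 2 g/L livers, against 415 to 558 CPM (median 494) in 1 g/L livers (-0.82 ± 0.10, adjusted p = 6.50e-06). Lect2, a secreted pericentral protein, had 22.8 to 51.6 CPM (median 33.9) in 2 g/L livers, against 62.1 to 83.1 CPM (median 76.5) in 1 g/L livers (-1.05 ± 0.15, adjusted p = 2.27e-05). Hal, a periportal enzyme of histidine breakdown, had 140.4 to 312 CPM (median 242) in 2 g/L livers, against 326 to 391 CPM (median 368) in 1 g/L livers (-0.62 ± 0.12, adjusted p = 0.00106). All of the 2 g/L livers were below the 1 g/L livers in these 3 genes.

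Of 15 tested genes of bile acid synthesis and transport 6 fell (Cyp7b1, Akr1d1, Baat, Slco1b2, Slco1a1 and Abcb11) and Abcb4 rose, where 6.64% of all tested genes fell and 9.90% rose. Abcb4, which moves phospholipid into bile, had 223 to 453 CPM (median 381) in 2 g/L livers, against 173 to 209 CPM (median 201) in 1 g/L livers (0.89 ± 0.13, adjusted p = 2.52e-05). Slco1a1, an uptake transporter of organic anions that is also male-biased, had 291 to 502 CPM (median 415) in 2 g/L livers, against 575 to 1005 CPM (median 750.0) in 1 g/L livers (-0.90 ± 0.14, adjusted p = 6.82e-05). Cyp7a1, which sets the rate at which bile acids are made from cholesterol, had 48.9 to 160.4 CPM (median 80.5) in 2 g/L livers, against 13.4 to 106 CPM (median 37.7) in 1 g/L livers. The groups overlapped and the gene did not pass the test (1.01 ± 0.39, adjusted p = 0.0816; 95% interval 0.24 to 1.78). Without library 54 it was called, and likewise in a fit that includes the sequencing run (log2 fold change 1.4, adjusted p = 0.0391).

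Drug metabolism genes moved both ways. Of 24 tested targets of CAR and PXR, receptors that sense foreign chemicals, 8 rose and 9 fell (median -0.26), beside 9.90% and 6.64% of all tested genes. The falls were 5 genes of the Cyp2c family, Cyp3a25, Cyp3a44, Ces2a and Slco1a4. Ces2a, a carboxylesterase, had 59.1 to 113 CPM (median 77.7) in 2 g/L livers, against 165 to 243 CPM (median 190.2) in 1 g/L livers (-1.21 ± 0.15, adjusted p = 3.83e-06). Por, the reductase that feeds electrons to all P450 enzymes of the endoplasmic reticulum, had 105 to 159.6 CPM (median 138) in 2 g/L livers, against 57.4 to 85.8 CPM (median 67.4) in 1 g/L livers (1.0 ± 0.13, adjusted p = 8.09e-06). Cyp3a11, the main PXR target of mouse liver, had 1391 to 2367 CPM (median 1922) in 2 g/L livers, against 1727 to 5339 CPM (median 2251) in 1 g/L livers and did not pass the test (-0.50 ± 0.23, adjusted p = 0.131). Cyp2b10, the usual marker of CAR, was low at 0 to 1.41 CPM (median 0.856) in 2 g/L livers, against 0.133 to 3.34 CPM (median 1.13) in 1 g/L livers and did not pass (-0.46 ± 0.66, adjusted p = 0.697). The list without libraries 73 to 75 had 5 rises and 4 falls.

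Of 19 tested targets of NRF2, the regulator of antioxidant defence, 11 rose and 2 fell (median 0.47), against 7 and 1 without libraries 73 to 75. With all libraries the shares of all tested genes were 9.90% higher and 6.64% lower. Ephx1, an epoxide hydrolase, had 269 to 626 CPM (median 479.6) in 2 g/L livers, against 179.6 to 269 CPM (median 199) in 1 g/L livers (1.19 ± 0.16, adjusted p = 1.26e-05). Gsta1, a glutathione transferase with close copies, had 2.68 to 8.77 CPM (median 4.03) in 2 g/L livers, against 0 to 1.09 CPM (median 0.543) in 1 g/L livers (3.1 ± 0.42, adjusted p = 1.19e-05). Nqo1, Srxn1, Txnrd1, Gsta2, Gstm1, Gstm3, Gsr, G6pdx and Mgst3 were the other rises, and Gclm and Gsta3 fell. Nfe2l2, the gene of NRF2, had 64.3 to 126 CPM (median 93.1) in 2 g/L livers, against 42.8 to 67.3 CPM (median 56.4) in 1 g/L livers (0.70 ± 0.13, adjusted p = 0.000333). It stood in the list of 6 tested AhR targets, of which 2 rose (Tiparp and Nfe2l2) and Cyp1a2 fell (median -0.11). Cyp1a1, Cyp1b1 and Ugt1a6a did not pass, and 9.90% of all tested genes rose and 6.64% fell.

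Of 23 acute phase genes, which liver makes in inflammation, 4 rose (Saa2, Orm2, Lcn2 and Il1rn) and Cfb fell (median 0.03). The shares over all tested genes were 9.90% higher and 6.64% lower. By edgeR's test 0 rose without libraries 73 to 75, and leaving out library 74 alone left 1 rise and leaving out library 52, 53 or 75 left 2, as did sequencing run as a term. Orm2, an acid glycoprotein of plasma, had 18.7 to 439 CPM (median 52.6) in 2 g/L livers, against 6.68 to 33.1 CPM (median 12) in 1 g/L livers (3.24 ± 0.79, adjusted p = 0.00560), and Lcn2, an iron-binding protein of innate defence, had 6.13 to 139.8 CPM (median 25.3) in 2 g/L livers, against 1.54 to 11.03 CPM (median 3.79) in 1 g/L livers (3.35 ± 1.02, adjusted p = 0.0255). Neither was called without libraries 73 to 75, with log2 fold changes of 1.11 (adjusted p = 0.353) and 1.46 (adjusted p = 0.434). Lcn2 also lost its call without any 1 of libraries 52, 53, 74 and 75 (adjusted p up to 0.0771) and with run as a term (adjusted p = 0.101). Library 8, an untreated liver at 0 g/L, had 84.8 CPM for Orm2 and 213 CPM for Lcn2, and its Lcn2 was above all livers at 2 and 1 g/L. Cfb, complement factor B, had 547 to 779.7 CPM (median 644) in 2 g/L livers, against 874 to 1003 CPM (median 951) in 1 g/L livers (-0.53 ± 0.11, adjusted p = 0.000913). S100a8, a neutrophil marker, had 0.365 to 2.19 CPM (median 1.52) in 2 g/L livers, against 0.135 to 0.349 CPM (median 0.233) in 1 g/L livers (2.21 ± 0.49, adjusted p = 0.00252), and its call was lost without those libraries (adjusted p = 0.0661). The summed level of 8 neutrophil markers was 0.852 to 8.76 CPM in 2 g/L livers, against 0.7305 to 1.46 CPM in 1 g/L livers, and it averaged 6.56 CPM in lane L3 and 2.12 CPM in lane L4 at 2 g/L. Its part in the acute phase values was not tested.

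Of 28 interferon response genes 5 fell (Ifit1, Ifit3, Rsad2, Ifi47 and Irgm1) and the other 23 did not pass, where 6.64% of all tested genes fell. The count was 2 to 3 without any 1 of libraries 6, 50, 51, 54, 74 and 76, and 1 without libraries 73 to 75. Ifi47, an interferon-induced GTPase, had 7.77 to 19.2 CPM (median 11.6) in 2 g/L livers, against 20.05 to 26.7 CPM (median 23.7) in 1 g/L livers (-0.81 ± 0.17, adjusted p = 0.00135). Rsad2, an antiviral enzyme, had 4.07 to 8.63 CPM (median 7.25) in 2 g/L livers, against 8.55 to 14.1 CPM (median 11.1) in 1 g/L livers (-0.70 ± 0.20, adjusted p = 0.0152), and its call was lost without libraries 73 to 75 (adjusted p = 0.0900).

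Clock genes changed in both directions, as did glucocorticoid-induced genes, beside 9.90% rises and 6.64% falls among all tested genes. Of 19 genes 5 rose (Per3, Nr1d1, Nr1d2, Dbp and Bhlhe40) and 3 fell, among them Cry1 and Nfil3, with 5 falls without library 98 or 100 and 2 rises with only libraries 73 to 75 at 2 g/L. Nr1d1, the repressor REV-ERB alpha, had 28.5 to 73.7 CPM (median 51.5) in 2 g/L livers, against 13.9 to 23.1 CPM (median 15.6) in 1 g/L livers (1.61 ± 0.19, adjusted p = 2.26e-06). Nr1d2, its close relative, had 61.2 to 87.4 CPM (median 64.4) in 2 g/L livers, against 28.3 to 42.1 CPM (median 35.2) in 1 g/L livers (1.04 ± 0.15, adjusted p = 3.04e-05). Both separated the doses, and both had their lower values in lane L3. The labels do not give the hour of collection. Among 11 genes that glucocorticoids induce, 2 rose (Mt1 and Lcn2) and 2 fell (Tsc22d3 and Zbtb16), and edgeR called 0 higher without library 52 or 53. All 4 calls were lost with sequencing run as a term, and 1 rise was called without libraries 73 to 75. Zbtb16, a zinc finger repressor, had 16.3 to 30.1 CPM (median 23.6) in 2 g/L livers, against 27.5 to 53.3 CPM (median 40.5) in 1 g/L livers (-0.77 ± 0.21, adjusted p = 0.0133), and its call was lost without libraries 73 to 75 (adjusted p = 0.0845), with only those libraries at 2 g/L (adjusted p = 0.0599) and with run as a term (adjusted p = 0.0722).

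Of 27 cell cycle genes 5 rose (Ccnb2, Ccne1, Ccnd1, Cdc20 and Cdca3) and the other 22 did not pass (median 0.51), where 9.90% of all tested genes rose. Ccnd1, the cyclin of entry into the cycle (chr7:144929931-144939925, minus strand), had 68.9 to 135 CPM (median 88.7) in 2 g/L livers, against 23.1 to 34.01 CPM (median 28.4) in 1 g/L livers (1.7 ± 0.20, adjusted p = 2.03e-06). Ccnb2, a mitotic cyclin, was low at 0.938 to 5.51 CPM (median 4.23) in 2 g/L livers, against 0.7305 to 2.85 CPM (median 1.09) in 1 g/L livers (1.44 ± 0.37, adjusted p = 0.00897), and it was not called with only libraries 73 to 75 at 2 g/L (adjusted p = 0.249). With sequencing run as a term 13 genes of the list rose, and with only libraries 73 to 75 at 2 g/L 2 did. The count was 9 without library 54, 2 without library 52 and 3 without any 1 of libraries 49, 50, 51, 53, 76 and 78. Of 14 tested p53 targets 5 rose (Mdm2, Bax, Gdf15, Aen and Eda2r), against 3 without libraries 73 to 75, 3 with run as a term and 1 with all libraries thinned to 1 total. Aen, a nuclease, had 15.5 to 19.7 CPM (median 17.3) in 2 g/L livers, against 9.896 to 13.7 CPM (median 11.5) in 1 g/L livers (0.57 ± 0.10, adjusted p = 0.000171), and Eda2r, a death receptor, had 1.12 to 3.51 CPM (median 1.94) in 2 g/L livers, against 0.332 to 1.16 CPM (median 0.687) in 1 g/L livers (1.46 ± 0.32, adjusted p = 0.00230). In Aen all 2 g/L livers were above the 1 g/L livers, and in Eda2r 5 of 6 were.

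Stress genes were called in both directions. Over all tested genes, 9.90% were called higher and 6.64% lower. Of 18 genes of the unfolded protein and integrated stress responses 2 rose (Atf3 and Trib3) and 3 fell (Pdia6, Calr and Herpud1), with 6 falls without library 78 and 1 without library 50 or 75. All 3 falls were lost without libraries 73 to 75, and 1 rise was called. Atf3, a transcription factor of stress, had 1.94 to 4.69 CPM (median 2.596) in 2 g/L livers, against 0.4498 to 1.296 CPM (median 0.972) in 1 g/L livers (1.6 ± 0.28, adjusted p = 0.000251). Pdia6, a chaperone of the endoplasmic reticulum, had 154 to 315 CPM (median 179) in 2 g/L livers, against 257 to 335 CPM (median 275) in 1 g/L livers (-0.49 ± 0.14, adjusted p = 0.0162), and its call was lost without libraries 73 to 75 (adjusted p = 0.276). Of 9 tested immediate early genes 3 rose (Jun, Junb and Atf3) and Egr1 fell, and Jun, a subunit of the AP-1 factor, had 10.4 to 30.02 CPM (median 16.1) in 2 g/L livers, against 2.699 to 11.8 CPM (median 5.25) in 1 g/L livers (1.5 ± 0.28, adjusted p = 0.000477). Among 11 heat shock genes edgeR called 0, while 3 had an unadjusted p under 0.05 and DESeq2 called 1 higher, and with only libraries 73 to 75 at 2 g/L edgeR called 3. Of 22 nuclear receptors and coactivators 1 rose (Nr1h3) and 2 fell (Ppard and Nr3c1), with 3 rises without library 49. Nr1h3, the oxysterol receptor LXR alpha, had 69.9 to 82.04 CPM (median 78.97) in 2 g/L livers, against 56.5 to 77.8 CPM (median 64.2) in 1 g/L livers (0.24 ± 0.07, adjusted p = 0.0212). Nr3c1, the glucocorticoid receptor, had 114 to 156 CPM (median 135) in 2 g/L livers, against 138 to 186 CPM (median 169.5) in 1 g/L livers (-0.29 ± 0.08, adjusted p = 0.0107). Both overlapped between doses, and both lost the call without libraries 73 to 75 (adjusted p = 0.212 and 0.119) and when the fit included the run (adjusted p = 0.156 and 0.0583). Nr1h3 also lost it without any 1 of libraries 53, 54, 74, 75 and 77 (adjusted p up to 0.0658).

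Among markers of other cells of the liver, 3 of 12 endothelial markers fell, where 6.64% of all tested genes did. Kdr, a receptor of vascular growth factor, had 72.2 to 91.01 CPM (median 76.8) in 2 g/L livers, against 87.6 to 101 CPM (median 91.4) in 1 g/L livers (-0.22 ± 0.06, adjusted p = 0.0154). Tek, the angiopoietin receptor, had 16.6 to 22.9 CPM (median 18.4) in 2 g/L livers, against 21.01 to 26.7 CPM (median 23.8) in 1 g/L livers (-0.29 ± 0.09, adjusted p = 0.0221). All 3 endothelial calls were lost with sequencing run as a term, with adjusted p = 0.0863 for Kdr and 0.0628 for Tek. Kdr also lost its call with only libraries 73 to 75 at 2 g/L (adjusted p = 0.232), and Tek lost it without them (adjusted p = 0.156) and without library 51. Without library 51 a single endothelial marker fell, and without library 74 it was 5. Of 12 stellate cell and fibroblast markers 2 fell, Reln with 141 to 185 CPM (median 175) in 2 g/L livers, against 170.1 to 223 CPM (median 214) in 1 g/L livers (-0.30 ± 0.07, adjusted p = 0.00361) and Dcn with 96.6 to 126 CPM (median 108) in 2 g/L livers, against 120.2 to 130.2 CPM (median 126) in 1 g/L livers (-0.20 ± 0.06, adjusted p = 0.0277). Dcn lost its call with only libraries 73 to 75 at 2 g/L (adjusted p = 0.333) and without any 1 of libraries 50, 51, 52 and 78 (adjusted p up to 0.0707). edgeR called 0 of 11 tested Kupffer cell markers, of which 1 had an unadjusted p under 0.05, and 0 of 6 tested bile duct markers, of which 1 did. DESeq2 called 1 of the Kupffer and 0 of the bile duct markers. Kupffer markers summed to 213 to 385 CPM in 2 g/L livers, against 281 to 337 CPM in 1 g/L livers. Few markers of cells from outside the liver passed the filter, and besides S100a8 those called were Cd4 of lymphocytes (0.313 to 1.46 CPM (median 0.768) in 2 g/L livers, against 2.24 to 5.33 CPM (median 2.69) in 1 g/L livers; -1.81 ± 0.44, adjusted p = 0.00524), Alas2 of red cell precursors (49.1 to 86.6 CPM (median 64.1) in 2 g/L livers, against 107 to 144 CPM (median 129.6) in 1 g/L livers; -0.90 ± 0.17, adjusted p = 0.000487) and Cela1 of exocrine pancreas (4.102 to 12.7 CPM (median 7.32) in 2 g/L livers, against 15.3 to 24.3 CPM (median 19.1) in 1 g/L livers; -1.14 ± 0.18, adjusted p = 7.42e-05), all lower. Cd4 was not called with only libraries 73 to 75 at 2 g/L (adjusted p = 0.0792), and it was the only lymphocyte marker tested. Amy2a5, the other tested pancreas marker, was not called, nor were the other 4 tested red cell markers (Hba-a2, Hbb-bs, Hbb-bt and Slc4a1). These are calls of single genes, and a change in the amount of these cells was not tested. Cela1 made most of the exocrine pancreas sums at 1 g/L. Summed over their lists, lymphocyte markers had 1.88 to 5.27 CPM in 2 g/L livers, against 4.14 to 22.6 CPM in 1 g/L livers, red cell markers had 289.7 to 688 CPM in 2 g/L livers, against 478 to 853 CPM in 1 g/L livers and exocrine pancreas markers had 6.02 to 12.9 CPM in 2 g/L livers, against 15.7 to 26.4 CPM in 1 g/L livers, with Cela3b at 0 throughout. Skeletal muscle markers summed to 0 to 0.293 CPM in 2 g/L livers, against 0 to 0.338 CPM in 1 g/L livers, and adipocyte markers to 2.76 to 3.79 CPM in 2 g/L livers, against 3.67 to 31.2 CPM in 1 g/L livers.

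**Figure D4:**
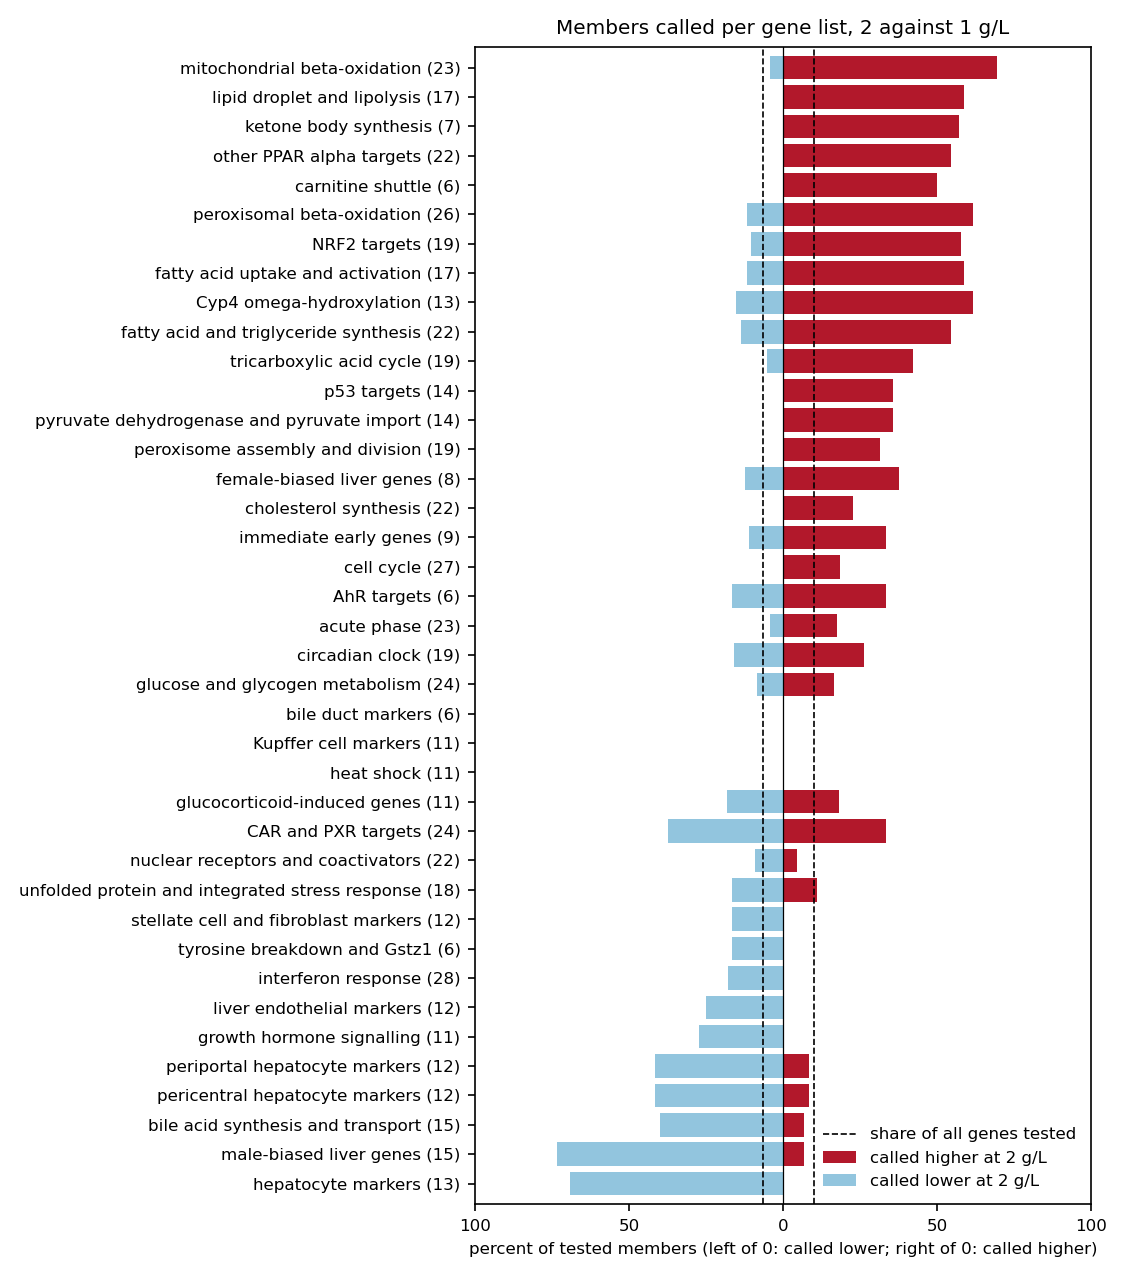
Percent of tested members called higher (right of 0, red) and lower (left of 0, blue) at 2 over 1 g/L for each gene list with at least 6 tested members, whose number is in brackets. Dashed lines mark the shares of all 13089 tested genes, 9.90% higher and 6.64% lower. Fatty acid lists stand at the top and hepatocyte and male-biased lists at the bottom.

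The step from 1 to 2 g/L was set against the step from 0 to 1 g/L by testing the difference of the 2 steps in the same fit. The step from 1 to 2 g/L was the more upward one in 598 genes (4.57%) and the more downward one in 293 genes (2.24%), and upper-quartile factors made these 495 and 450. The 1 g/L livers enter both steps with opposite sign, so that their own deviations widen this difference. All 0 g/L libraries shared lane L5 with library 49, while the remaining 1 g/L libraries and all 2 g/L libraries lay in other lanes. The 2 steps thus differ in lane as well as in dose. The upward set held 11 of 26 peroxisomal and 11 of 23 mitochondrial beta-oxidation genes, and the downward set held 7 of 15 male-biased genes. This step was looked at because fatty acid oxidation genes were known to rise over it. Their place in the upward set describes that rise and does not test it anew. Cyp4a14 had medians of 3.19, 11.2, 3168 and 5057 CPM at 0, 1, 2 and 3.5 g/L, and its step from 1 to 2 g/L exceeded that from 0 to 1 g/L by 6.48 ± 1.05, adjusted p = 0.000840. Ehhadh had medians of 170.3, 222, 5329 and 6038 CPM (difference of steps 4.15 ± 0.58, adjusted p = 0.000356). In both genes the step between the lowest doses was small beside the next one. Lpin2 dipped at 1 g/L, with medians of 282, 139, 314 and 706.3 CPM (difference of steps 2.16 ± 0.24, adjusted p = 4.77e-05).

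For some other genes that rose at 2 g/L the difference of steps was not called. Scd1 had medians of 1638, 4006, 13893 and 20453 CPM from 0 to 3.5 g/L, and the difference of its steps did not pass the test (1.23 ± 0.48, adjusted p = 0.122). Fabp1 (0.50 ± 0.33, adjusted p = 0.389) and Nr1d1 (0.38 ± 0.34, adjusted p = 0.543) did not pass it either. Leaving out any 1 of the 6 libraries at 1 g/L moved the number of genes called for this difference by over 1.5 times, to 1606 without library 49 and to 450 without library 51, and with sequencing run as a term it was 233.

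Against the next step, from 2 to 3.5 g/L, the later step was the more upward one in 411 genes (3.14%) and the more downward one in 666 genes (5.09%). Of the peroxisomal list 9 genes and of the mitochondrial list 7 genes were in the downward set. These counts too describe lists whose rise from 1 to 2 g/L was known beforehand. For Ehhadh the difference of steps was -4.14 ± 0.50, adjusted p = 4.70e-05, for Acaa1b -3.28 ± 0.40, adjusted p = 4.70e-05 and for Cyp4a14 -7.12 ± 0.83, adjusted p = 4.34e-05. Ehhadh had a median of 6038 CPM at 3.5 g/L and 5329 CPM at 2 g/L, Acaa1b had 1338 and 1793 CPM, and Cyp4a14 had 5057 and 3168 CPM. The 2 g/L livers enter both steps, and the later step is wider in dose. Pdk4 (1.81 ± 0.97, adjusted p = 0.264) did not pass this test. All 3.5 g/L libraries shared lane L4 with libraries 76 to 78, and without libraries 73 to 75 the number of genes called was 252 in place of 1077.

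**Figure D5:**
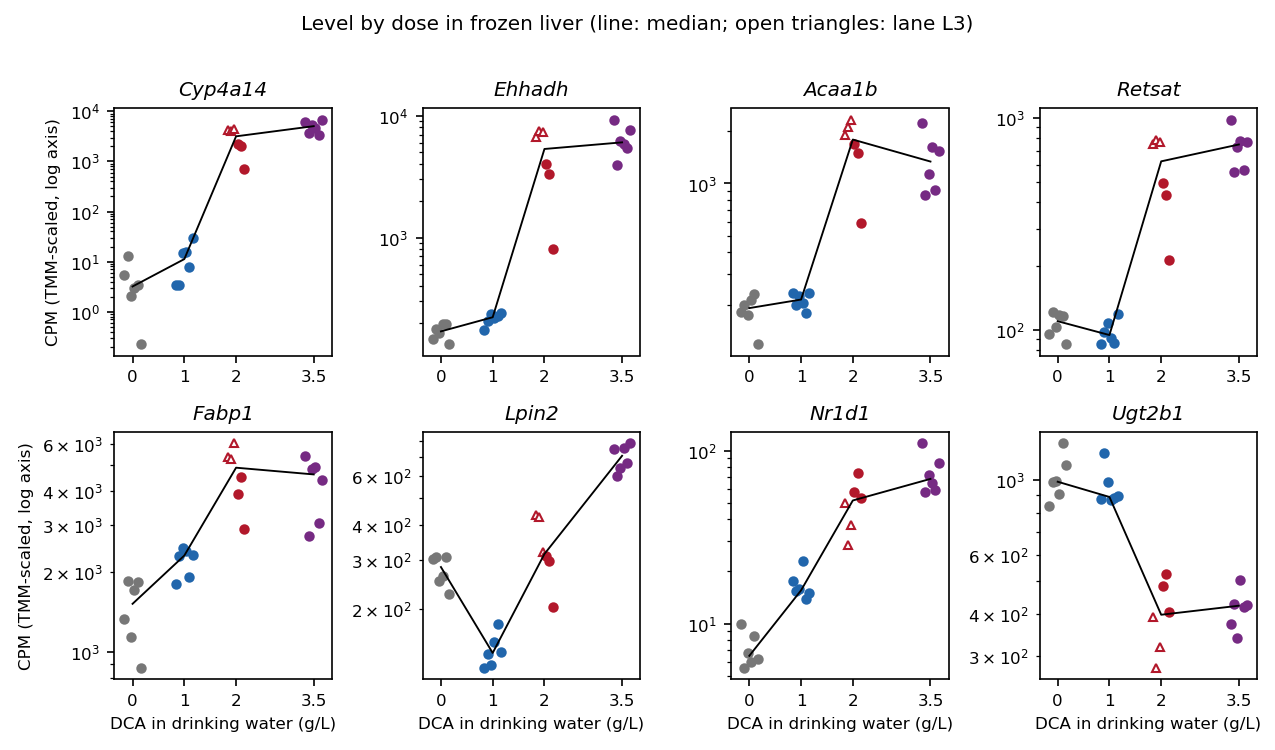
TMM-scaled CPM on log axes against the DCA dose in g/L for 8 genes, with 1 point per liver, a line through the medians and open triangles for libraries 73 to 75. Cyp4a14, Ehhadh, Acaa1b and Retsat climb between 1 and 2 g/L, Lpin2 is lowest at 1 g/L, Nr1d1 climbs at each of the first steps and Ugt2b1 drops between 1 and 2 g/L.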

How the data were processed

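RNA of frozen mouse liver was sequenced after ribosomal depletion with a stranded total RNA kit, per the labels' protocols. Per the submitters' processing notes the tools were CASAVA, STAR 2.4 and RSEM and the build was mm10. The authors deposited RSEM expected counts per gene, which were rounded here, and FPKM values, which were used only to compare levels between genes. Expected counts of 24 frozen libraries at 4 doses were fitted with filterByExpr at a minimum count of 10, TMM factors and the quasi-likelihood F test, 2-sided, with Benjamini-Hochberg adjustment over 13089 genes. The tool was edgeR, version 4.0.16, under R 4.3.3. The standard error is the log2 fold change divided by the square root of F. The method was tested on simulated data. DESeq2 1.42.0 was an alternative. Named genes were the 8 largest rises and 8 largest falls without overlap between doses and with log2 CPM averaging 2 or more, the 2 called members of smallest adjusted p in each list, and a fixed set of liver genes, of which some are not reported here. Members of lists named without values, and library subsets named for a lost call, were picked after their values were seen. The members and lists were chosen with earlier results of these data known. Coordinates are from GENCODE vM21 (mm10). A list of mitochondrial genome genes matched no row and was not used here.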

Additional observations from a re-analysis of the deposited data

Results flagged for a closer look

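Of 186 groups of 6 livers (93 named genes at both doses), 10 held a liver set apart from the nearest other liver by more than Dixon's 95% limit, and chance gives such a liver in about 1 in 20 groups. Library 78 was the low one of the 2 g/L group in 5 genes, with 809 CPM for Ehhadh, 593 CPM for Acaa1b, 448 CPM for Dbi, 190.1 CPM for Dlst and 77.5 CPM for Elovl3. In the first 4 of these genes, which rose with dose, library 78 lay nearer to the 1 g/L livers than the other libraries did, and in Elovl3, which fell, it lay farther away. At 1 g/L library 54 was low in Mup21 (67.5 CPM) and Reln (170.1 CPM) and high in Cyp3a11 (5339 CPM). Library 52 was low in Serpina1e (6061 CPM), and library 53 was high in Cd4 (5.33 CPM).

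The step from 1 to 2 g/L differed from that from 0 to 1 g/L in 891 genes, and the step from 2 to 3.5 g/L differed from that from 1 to 2 g/L in 1077 genes, both by the test of the difference itself. In a second deposited count table of the same livers, the ribosomal precursor gene Rn45s took 2.48% of the counts of library 73 and 11.5% of those of library 77 at 2 g/L, against 0.424% to 2.03% in the 6 livers at 0 g/L. In the table used for the report it took 0.383% to 0.941% of the counts of the 2 g/L libraries.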

How the results depend on the processing

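The number of genes called at 2 over 1 g/L, 2165, was 2250 with DESeq2, 2171 with its size factors, 2261 with upper-quartile factors, 1947 without a filter, 2186 with a stricter filter, 2121 in the second table, 1797 with only the 12 libraries compared and 1527 with sequencing run as a term. A lane term could not be fitted. The run term rests on libraries 53 and 54 alone, so that it in effect sets those livers at 1 g/L aside. For the 3 counts of calls, 2 over 1 g/L, its difference from the step before and its difference from the step after, thinning every library to 3067666 counts gave 1431, 410 and 583, an adjusted p under 0.01 gave 1098, 218 and 318, and a fold of at least 2 gave 280, 294 and 321. Without libraries 73 to 75 the count for 2 over 1 g/L was 1138 and that for the later difference 252. With run as a term the count for the earlier difference was 233, and with only the first run the counts were 222 for the earlier and, rounded, 7.1e+02 for the later difference. Leaving out 1 library gave 1687 to 2440, 450 to 1606 and 659 to 1466. The count for the earlier difference was 1606 without library 49, 576 without 50, 450 without 51, 499 without 52, 479 without 53 and 588 without 54, and that for the later one was 659 without library 75. Of 84 called named genes 45 kept their call in all 38 alternatives and 0 changed sign in edgeR or DESeq2 fits. These alternatives include the fold of at least 2 and the adjusted p under 0.01, which drop smaller or weaker calls by definition. In every fit that left out 1 library, 79 of the 84 kept their call. Signs turned in 4 genes that were not called. Pdk4 was -0.045 (log2) without libraries 73 to 75. Ppara was 0.020 with run as a term and 0.019 in the first run alone. Pklr was -1.03 with only libraries 73 to 75 at 2 g/L and -0.21 to 0.21 with 1 library left out. Cyp2b10 was -0.72 to 0.028 with 1 library left out. The cause was not tested. The fits on libraries 73 to 75 alone and on the first run alone were chosen after seeing the data. No paired analysis was possible because the dose groups share no animal numbers. Libraries 73 to 75 held 3067666 to 3854951 counts, which limits genes of few counts.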
